A study of Mus musculus with 9 samples.

Results

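The 88 genes described here were protein-coding genes that kept a clear level in wild-type embryoid bodies and in embryoid bodies lacking *Tnfaip2*, and were low in the same knockout bodies under PA/PC, a supplement of palmitic acid and its carnitine ester. They were chosen on CPM (a gene's count divided by the library's total count, times 1000000), averaged over the 3 libraries of each group. A member had a mean of at least 3 CPM in both untreated groups and a mean under PA/PC of at most 1/8 of the lower of them. Of 55471 gene IDs in the table, 21974 were protein-coding, 11317 of these reached the floor in both untreated groups, and 88 of the 11317 (0.778%) met the limit. The limit of 300 genes that the rule allowed was not reached. Positions are of GRCm38, from GENCODE M21, and span the whole gene.

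RNA was sequenced from embryoid bodies (EBs), aggregates in which mouse embryonic stem cells leave self-renewal and form the first differentiated cell types. WT EBs came from the E-14 embryonic stem cell line, KO EBs from 1 CRISPR-Cas9 clone of that line with a premature stop in the second exon of *Tnfaip2*, and KO_PAPC EBs from the same knockout cells to which PC (palmitoyl-L-carnitine) and PA (palmitic acid) had been added at 8 µM each. All EBs were taken after 3 days of differentiation on gelatin, the study describes a vehicle control for KO, and each group held 3 libraries from separate pools of EBs. The KO_PAPC group therefore carried the same mutation as KO, no library of treated WT EBs was analysed here, and clone and genotype cannot be told apart. The study describes PA/PC as present both while EBs formed, for 3 days, and during differentiation. It describes formation of the treated EBs in fibroblast medium, and of EBs in general in embryonic stem cell medium. A difference in medium during formation can therefore not be told apart from PA/PC. Depth was even, at 27362913 to 28914312 counts per library, and all replicate pairs differed by more than sampling noise. *Tnfaip2* itself had between 5 and 25 counts in each library and gave no check of the labels. The 6 pluripotent cell markers (*Nanog*, *Pou5f1*, *Sox2* and others) were all well above the floor in each group, with summed levels of 2945 to 2985 CPM in WT, 3853 to 3874 CPM in KO, and under PA/PC 3222 to 3335 CPM.

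Many of the members belong to gene families that mammals otherwise use in germ cells and the placenta. Such genes are often kept silent in somatic cells by DNA methylation of CpG sites at their start and by repressive chromatin, and several of them sit in clusters on the X chromosome. Others are genes of the extraembryonic endoderm, the absorptive epithelium that forms on the surface of EBs and takes up nutrients by endocytosis, and of its transcription factor network.

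The members' summed level was 1640, 1615 and 1619 CPM in the WT libraries, 2230, 2254 and 2249 CPM in those of KO, and 92.04, 95.8 and 97.5 CPM under PA/PC. Because these values chose the members, they are given as a description. Every KO_PAPC library lay below every WT and KO library for all 88 members, against 41.8% of the 11317 genes at the floor, and this too was set by the choice. Relative to the lower untreated mean, the members were 8.05-fold to 260-fold lower under PA/PC, with a median of 12.01-fold, and 25 of them were more than 16-fold lower. The lower untreated group was WT for 58 members and KO for 30. Among the treated libraries, replicate 1 was the lowest for 40 members, replicate 2 for 24 and replicate 3 for 24, and they were the highest for 24, 30 and 34. "Silent" described only some of them: 59 members had a KO_PAPC mean under 1 CPM and 6 had at most 10 counts over the 3 KO_PAPC libraries, while 29 kept a mean of 1 CPM or more. Fewer cells of a type and less RNA per cell cannot be told apart in such bulk libraries.

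**Figure D1:**
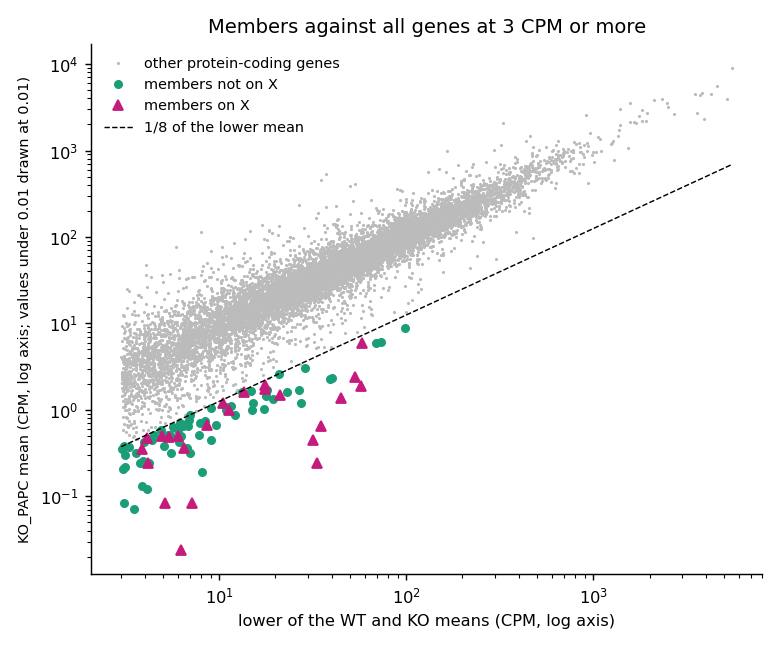
Mean level under PA/PC against the lower of the WT and KO means, both in CPM on log axes, for the 11317 protein-coding genes at the floor of 3 CPM, with the 24 members on the X chromosome as triangles and the other 64 as circles. The dashed line is 1/8 of the lower mean, and the members furthest below it, *Gm9* at the bottom with 0.0239 CPM, are on X.

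The limit cut through a continuous range. Just inside it lay *Qpct* (8.42-fold), *Tinagl1* (8.14-fold), *Gata4* (8.11-fold), *Slc13a5* (8.08-fold) and *Tfec* (8.05-fold), and just outside it *Tbx4* (7.98-fold), *Tex19.2* (7.95-fold), *Tktl1* (7.90-fold), *Sh3tc1* (7.86-fold) and *Rbm47* (7.85-fold). Scaling by trimmed mean of M-values (TMM) factors, which were near 1.04 in WT and KO and near 0.92 in KO_PAPC, kept 71 of the 88, since it raised the KO_PAPC levels; relative to library totals it shifted the median log2 difference of all genes between KO_PAPC and KO by 0.17. The choice was also made without 1 KO_PAPC library, which was then set against the same WT and KO means. Because those means helped to choose the genes, this describes replicate spread and is not an independent repeat. Of 82 genes chosen without KO_PAPC replicate 1, 77 were also at or below 1/8 in that replicate, and the counts were 76 of 90 for replicate 2 and 76 of 93 for replicate 3. The highest ratio of a left-out library to the lower untreated mean was 0.163, 0.201 and 0.168, so that all stayed under 1/4. All 9 choices that left out 1 library shared 77 members.

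The X chromosome held 24 of the 88 members, which was 5.83% of the 412 X-linked genes at the floor, against 64 of 10905 (0.587%) on the other chromosomes. Chromosome 16 followed with 4 of 358 genes (1.12%) and chromosome 14 with 4 of 389 (1.03%). The X share of the members was 29.6% after TMM scaling, 37.1% with a floor of 10 CPM and 44.0% with a limit of 1/16, but 14.5% with a limit of 1/4. X-linked genes outside the list were also somewhat lower in the median: their median log2 difference between KO_PAPC and KO was -0.52, against -0.11 for genes on the other chromosomes, both outside the list. Against WT the medians were closer, at -0.24 and -0.13, and chromosome 11 was lower still at -0.29. On the ratio the rule used, the median outside the list was also lower on chromosome 11 (0.866) than on X (0.878). Of the X-linked members 4 of 24 (16.7%) had a single exon, against 3.88% of the X-linked genes at the floor, and none of the other 64 members did. Applied to the other 2 groups, the same rule found 13 of 10909 genes that were low only in KO (*Mest* and *Adm* among them, none on X) and 1 of 10755 that was low only in WT, *Hist1h1b*.

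**Figure D2:**
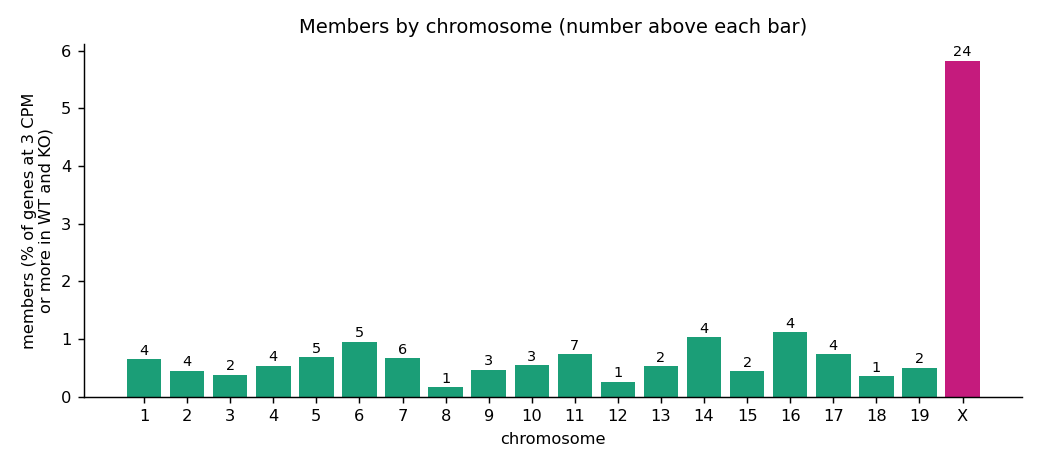
Members as a percentage of the protein-coding genes with at least 3 CPM in WT and KO, by chromosome, with the number of members above each bar. The X chromosome stands at 5.83% with 24 members, and no other chromosome exceeds 1.12%.

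The sequence around the transcription start was a property that the choice had not used. RefSeq start windows of 300 bases (250 before the annotated start and 50 after it) were matched by symbol for 65 of the 88 members, giving 77 windows, because some genes have several starts. The start used in EBs need not be the annotated one. The 7 windows printed here were picked to show members with many CpGs and members with few or none. Some windows held more than any of them, up to 45 CpGs at a start of *Cdkn2a*. The printed windows come from GRCm38.p6 and read 5′ to 3′ on the gene's strand, with CpG dinucleotides, the sites of DNA methylation, in capitals. *Dazl* lies at chr17:50293571-50293870 (minus strand), *Tuba3b* at chr6:145615713-145616012 (plus), *Taf7l* at chrX:134476441-134476740 (minus), *Gm9* at chrX:37210992-37211291 (minus), *Pnma5* at chrX:73037054-73037353 (minus), *Rhox1* at chrX:37222209-37222508 (minus) and *Cubn* at chr2:13491827-13492126 (minus).
Dazl: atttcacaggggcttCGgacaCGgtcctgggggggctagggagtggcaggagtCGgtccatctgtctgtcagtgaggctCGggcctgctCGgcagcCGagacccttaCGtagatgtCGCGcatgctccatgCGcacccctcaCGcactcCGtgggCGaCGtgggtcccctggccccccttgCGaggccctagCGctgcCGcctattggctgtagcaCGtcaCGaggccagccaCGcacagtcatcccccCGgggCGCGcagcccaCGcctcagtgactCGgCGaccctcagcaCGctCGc
Tuba3b: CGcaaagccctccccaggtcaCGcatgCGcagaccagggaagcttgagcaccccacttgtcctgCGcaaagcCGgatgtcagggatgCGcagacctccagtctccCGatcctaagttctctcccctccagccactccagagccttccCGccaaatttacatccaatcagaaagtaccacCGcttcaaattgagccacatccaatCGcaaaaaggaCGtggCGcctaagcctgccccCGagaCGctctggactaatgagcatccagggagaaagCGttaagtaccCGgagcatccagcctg
Taf7l: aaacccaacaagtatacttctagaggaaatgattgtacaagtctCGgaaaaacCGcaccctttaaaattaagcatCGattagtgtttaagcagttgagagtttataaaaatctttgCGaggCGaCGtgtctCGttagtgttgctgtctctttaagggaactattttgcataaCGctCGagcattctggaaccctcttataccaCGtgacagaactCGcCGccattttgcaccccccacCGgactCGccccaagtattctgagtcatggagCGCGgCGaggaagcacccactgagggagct
Gm9: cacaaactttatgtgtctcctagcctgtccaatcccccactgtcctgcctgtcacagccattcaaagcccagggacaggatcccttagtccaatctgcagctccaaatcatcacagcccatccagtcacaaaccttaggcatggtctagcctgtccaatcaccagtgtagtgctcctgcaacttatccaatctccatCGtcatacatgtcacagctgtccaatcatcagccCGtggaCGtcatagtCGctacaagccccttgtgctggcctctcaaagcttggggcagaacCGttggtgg
Pnma5: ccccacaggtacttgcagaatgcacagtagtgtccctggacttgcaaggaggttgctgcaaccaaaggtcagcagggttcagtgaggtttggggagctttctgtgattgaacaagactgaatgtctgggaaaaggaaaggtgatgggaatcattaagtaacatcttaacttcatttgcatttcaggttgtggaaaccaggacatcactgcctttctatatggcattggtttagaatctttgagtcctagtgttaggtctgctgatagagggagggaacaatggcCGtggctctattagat
Rhox1: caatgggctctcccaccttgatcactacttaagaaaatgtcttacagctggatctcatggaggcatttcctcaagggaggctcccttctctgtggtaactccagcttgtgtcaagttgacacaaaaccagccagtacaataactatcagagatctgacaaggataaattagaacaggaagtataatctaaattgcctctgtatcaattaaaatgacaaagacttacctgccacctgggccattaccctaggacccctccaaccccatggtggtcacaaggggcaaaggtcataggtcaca
Cubn: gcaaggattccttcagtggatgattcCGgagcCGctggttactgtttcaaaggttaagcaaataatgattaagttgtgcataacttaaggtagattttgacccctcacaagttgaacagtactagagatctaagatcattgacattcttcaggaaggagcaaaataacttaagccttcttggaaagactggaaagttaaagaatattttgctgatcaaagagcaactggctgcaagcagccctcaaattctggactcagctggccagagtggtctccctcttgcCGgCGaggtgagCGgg

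The *Dazl* window held 28 CpGs, those of *Taf7l* and *Tuba3b* 17 and 16, those of *Gm9* and *Cubn* 5 each, that of *Pnma5* 1, and that of *Rhox1* none, although all 7 genes met the same rule. Over all member windows the median was 10 CpGs and a CpG observed-to-expected ratio of 0.445, where 1 would be the number expected from the content of C and G. The 11605 windows of all genes at the floor had medians of 21 CpGs and 0.767. On the X chromosome the median ratio was 0.343 in 18 member windows and 0.646 in 448 windows of genes at the floor, and off X it was 0.467 in 59 member windows and 0.772 in 11157. A ratio of at least 0.6 was found in 32.5% of the member windows and in 72.5% of those of all genes at the floor. Relative to genes at the floor, the members' windows were thus poorer in CpG on the X and off it, as a description over genes with no test. All 32851 windows, whatever the level of the gene, had lower medians than the members, of 7 CpGs and 0.384, with 35.8% at a ratio of at least 0.6. The 20139 windows of protein-coding genes had higher ones, of 14 CpGs and 0.588. Among 4 short motifs searched on both strands, none of which contains another, the TATA sequence TATAAA was in 19.5% of the member windows, in 6.61% of those of genes at the floor and in 13.6% of all windows. The E2F-type sequence GCGGGA was in 13.0%, 36.8% and 19.98% of them, and in 0 of the 18 windows of X-linked members. The E-box CACGTG (6.49%, 10.3% and 7.15%) and the GATA sequence AGATAA (7.79%, 5.77% and 11.2%) were less uneven. These are matches of letters, not binding sites.

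**Figure D3:**
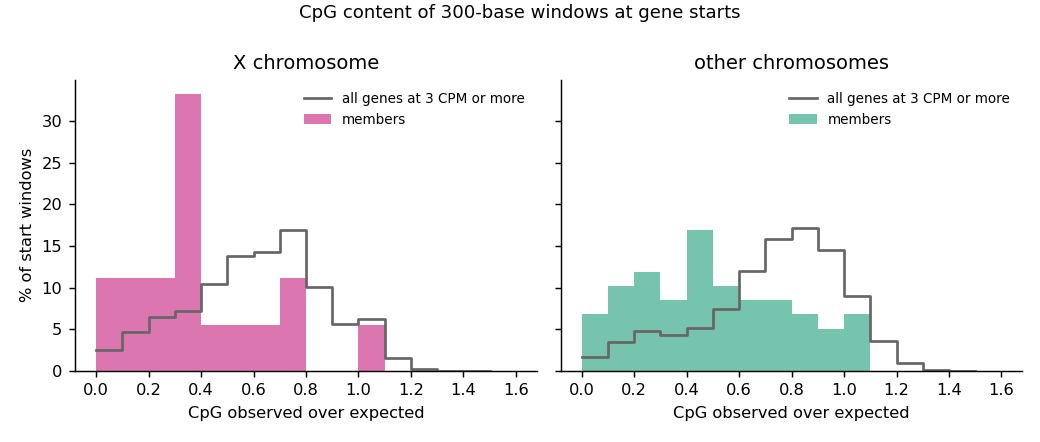
Share of 300-base start windows (%) by CpG observed-to-expected ratio, in bins of 0.1, for members (bars) and all genes with at least 3 CPM in WT and KO (line), on the X chromosome and on the others. The member windows lie further to the left in both panels, with medians of 0.343 and 0.467.

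The 21 members grouped as X-linked germ cell and placenta genes had a median fold of 17.4 below the lower untreated mean. They included 11 of the 25 members that were more than 16-fold lower. The grouping was made after the members had been seen, and it holds genes with no role given here, such as *Gm15262* and *AU015836*. The lowest was *Gm9*, a gene beside the *Rhox* cluster. *Gm9* (chromosome X, 37209348 to 37211041) measured 6.104, 6.87 and 5.72 CPM in the WT libraries, 14.6, 14.4 and 14.1 CPM in those of KO, and 0, 0 and 0.0718 CPM under PA/PC. Both untreated groups were thus at several CPM, while the 3 treated libraries held 2 counts in all, a 260-fold difference whose 95% interval from counting error alone ran from 71.2 to 2141. It was the one member with a KO_PAPC library at 0. Of the nuclear RNA export factor family, *Nxf3* (chromosome X, 136072099 to 136085255) measured 36.3, 32.1 and 31.5 CPM in the WT libraries, 76.4, 73.1 and 79.1 CPM in those of KO, and 0.288, 0.292 and 0.144 CPM under PA/PC. Its treated mean was 138-fold below WT, the lower group, from 20 counts over 3 libraries (95% interval 89.4 to 227). Its relative *Nxf7* was 10.0-fold lower, whereas *Nxf1*, the general mRNA exporter of every cell, had means of 194, 206 and 227 CPM in WT, KO and KO_PAPC.

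*Usp26* (chromosome X, 51753959 to 51801233), a ubiquitin peptidase of the testis, measured 7.62, 6.69 and 7.17 CPM in the WT libraries, 25.6, 26.1 and 28.01 CPM in those of KO, and 0.035997, 0.146 and 0.0718 CPM under PA/PC. *Pnma5* (chromosome X, 73033981 to 73037103), of the paraneoplastic Ma antigen family derived from retrotransposons, measured 32.1, 31.1 and 32.2 CPM in the WT libraries, 101, 105 and 105 CPM in those of KO, and 0.5399, 0.402 and 0.395 CPM under PA/PC. Both were far higher in KO than in WT and almost absent from all 3 treated libraries, at 84.6-fold and 71.4-fold below WT. Of the 51-base words of the *Pnma5* transcripts 25.7% also occur in other genes, most often *Pnma3*, so its reads are less certain. *Gm364* measured 69.8, 62.4 and 64.1 CPM in the WT libraries, 34.3, 34.2 and 36.6 CPM in those of KO, and 0.7199, 0.512 and 0.718 CPM under PA/PC. The uncharacterised *Gm15262* was 61.3-fold lower, on 7 counts in the treated libraries. *Tex13b*, a testis-expressed gene, measured 57.6, 57.7 and 56.2 CPM in the WT libraries, 87.3, 88.8 and 89.6 CPM in those of KO, and 1.55, 1.9004 and 2.23 CPM under PA/PC. *Fmr1nb* (chromosome X, 68761839 to 68804567), a testis antigen encoded next to *Fmr1*, measured 44.7, 44.8 and 45.4 CPM in the WT libraries, 103, 104 and 99.2 CPM in those of KO, and 1.19, 1.39 and 1.54 CPM under PA/PC. Their treated means were 30.2-fold and 32.7-fold below WT, and no library of one group overlapped with another. *Scml2*, which encodes a Polycomb protein of the male germ line, measured 55.99, 52.2 and 52.6 CPM in the WT libraries, 54.4, 59.96 and 61.4 CPM in those of KO, and 2.48, 1.94 and 2.84 CPM under PA/PC, a 22.2-fold difference. *Taf7l*, the germ cell form of a subunit of the general transcription factor TFIID, measured 11.4, 9.17 and 11.1 CPM in the WT libraries, 20.02, 19.24 and 19.6 CPM in those of KO, and 1.19, 1.17 and 1.26 CPM under PA/PC. Its widely expressed counterpart *Taf7* was at 177, 238 and 173 CPM in WT, KO and KO_PAPC, so that of the pair the germ cell form alone was low under PA/PC.

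A run of 6 members lay together between 37209348 and 38129967 on the X chromosome, the only place where 3 or more members fell within 1 Mb of each other. It is the reproductive homeobox (*Rhox*) cluster, whose genes encode transcription factors of testis, ovary and placenta. The stretch held 37 protein-coding genes, 6 of which reached the floor, and all 6 were members: *Gm9*, *Rhox1*, *Rhox5*, *Rhox6*, *Rhox9* and *Rhox13*. Its bounds were its first and last member, so this count was partly set by how the stretch was drawn. *Rhox5*, the founding member, measured 64.7, 62.2 and 61.97 CPM in the WT libraries, 60.9, 58.5 and 55.6 CPM in those of KO, and 5.76, 5.99 and 5.89 CPM under PA/PC. Per kilobase of exon it was the highest of all members in WT, at 83.5 CPM per kb, ahead of *Fmr1nb* (48.0) and *Stra8* (40.5). *Rhox13* measured 9.46, 11.6 and 10.2 CPM in the WT libraries, 8.75, 8.39 and 8.65 CPM in those of KO, and 0.864, 0.767 and 0.359 CPM under PA/PC. *Rhox6* measured 6.56, 6.47 and 6.45 CPM in the WT libraries, 19.5, 17.6 and 20.4 CPM in those of KO, and 0.468, 0.402 and 0.215 CPM under PA/PC. *Rhox9* measured 5.72, 5.46 and 6.92 CPM in the WT libraries, 23.2, 22.6 and 21.96 CPM in those of KO, and 0.5399, 0.512 and 0.431 CPM under PA/PC. *Rhox1* measured 5.01, 5.28 and 4.49 CPM in the WT libraries, 12.6, 11.3 and 10.9 CPM in those of KO, and 0.396, 0.365 and 0.718 CPM under PA/PC. All 5 were low in every treated library, but the untreated groups differed in order, since *Rhox6*, *Rhox9* and *Rhox1* were higher in KO, and *Rhox5* and *Rhox13* slightly lower. *Rhox10* had the same pattern below the floor, with means of 1.69, 3.07 and 0.0483 CPM in WT, KO and KO_PAPC. *Rhox6* shares 16.4% of its 51-base words with other genes, most often *Rhox9*. No other gene of the stretch had a mean above 0.587 CPM in any group. None of the 5 genes of the MAGE family at the floor was a member. Of these, *Maged1* measured 269, 341 and 249 CPM in WT, KO and KO_PAPC. Among MAGE genes below the floor, *Magea4* was 15.3-fold and *Mageb16* 4.55-fold under the lower untreated mean.

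The 8 autosomal germ cell genes included the pair of this kind with the highest WT means. *Dazl* (chromosome 17, 50279395 to 50293636), an RNA-binding protein that germ cells need, measured 80.4, 71.7 and 76.3 CPM in the WT libraries, 62.1, 71.6 and 72.5 CPM in those of KO, and 5.795, 6.07 and 5.96 CPM under PA/PC. *Stra8* (chromosome 6, 34920163 to 34939344), which retinoic acid induces at the entry into meiosis, measured 72.3, 74.2 and 72.5 CPM in the WT libraries, 81.1, 80.98 and 77.3 CPM in those of KO, and 5.98, 5.701 and 6.85 CPM under PA/PC. Both differed little between WT and KO, and were 11.6-fold and 11.8-fold lower under PA/PC, where they kept about 6 CPM in each library. The testis α-tubulin *Tuba3a* measured 37.997, 40.6 and 38.9 CPM in the WT libraries, 151, 146 and 143 CPM in those of KO, and 2.02, 2.52 and 2.33 CPM under PA/PC. *Tuba3b*, its near copy, measured 9.17, 9.13 and 9.49 CPM in the WT libraries, 7.98, 7.99 and 8.44 CPM in those of KO, and 0.108, 0.183 and 0.287 CPM under PA/PC. The treated means of the pair were 17.1-fold and 42.3-fold lower. However, *Tuba3a* shares 34.5% of its 51-base words and *Tuba3b* 28.99% with other genes, most often each other. Reads may have been lost for both. *Tktl2*, a retrogene of the transketolase family, was 36.7-fold lower with 7 counts in the treated libraries. *Nlrp4c*, an oocyte gene, was 14.5-fold lower, *Ccdc172* 15.6-fold and *Trim66* 14.4-fold. *Nlrp4c* shares 10.3% of its 51-base words with other genes and is less certain. The wider list of 93 germline and meiosis genes had 58 at the floor, of which 9 were members. The median ratio of KO_PAPC to the lower untreated mean over the 58 was 0.511, against 0.994 for all genes at the floor. The rule chose members on this ratio and the 9 are among the 58, so the median is a description and no separate support. Primordial germ cell markers were mostly lower under PA/PC, by unlike amounts. Besides *Dazl*, *Ddx4* was at 35.5, 16.2 and 29.02 CPM in WT, KO and KO_PAPC, and *Tfap2c* at 53.9, 294 and 27.4 CPM. In the same order, *Prdm1* was at 16.8, 28.96 and 5.20 CPM, and *Nanos3* at 2.33, 12.3 and 2.30 CPM. By edgeR's quasi-likelihood test (adjusted p under 0.05), 4 of the 5 were lower and 1 higher in KO_PAPC than in KO. Of all genes tested 42.2% were lower and 39.6% higher. Against WT 4 were lower and 0 higher, beside 6067 and 5693 of all 16655 genes tested. These calls include *Dazl*, which was chosen as low. The summed level of these 5 markers was 179 to 189 CPM in WT, 410 to 428 CPM in KO, and under PA/PC 68.8 to 71.7 CPM, none was at 0, and its part in the members' levels was not tested.

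**Figure D4:**
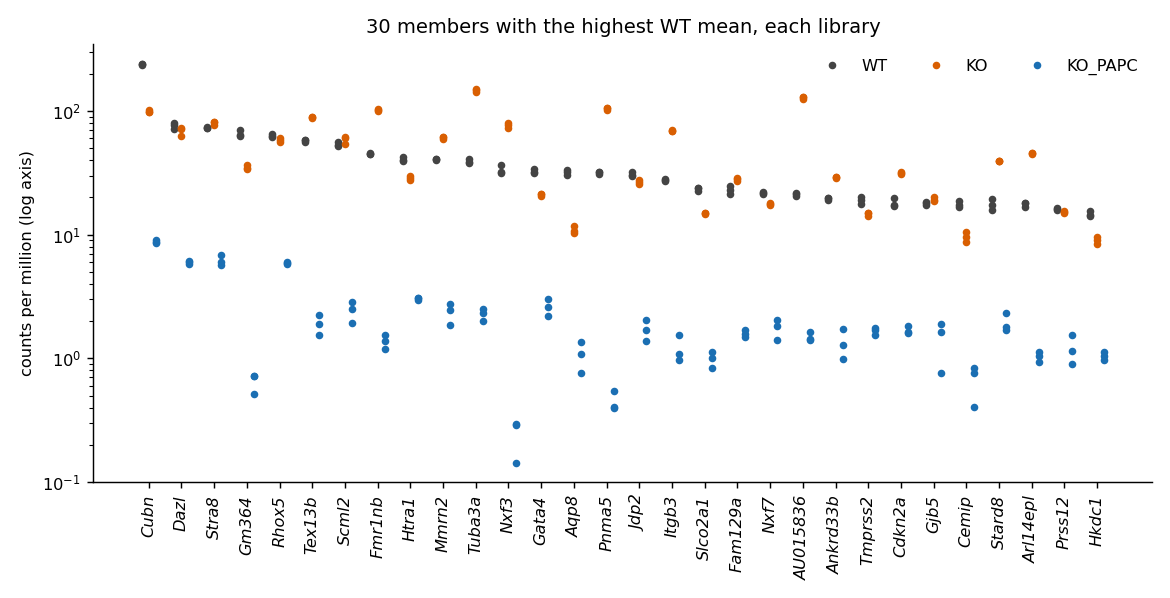
Level of the 30 members with the highest WT mean in each of the 9 libraries, in CPM on a log axis, with 1 point per library and colour by group. The KO_PAPC points lie below all others for each gene, from 8.60 to 8.97 CPM for *Cubn* down to 0.144 to 0.292 CPM for *Nxf3*, while KO points lie above or below WT depending on the gene.

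Besides the 5 *Rhox* homeobox factors, 7 members were grouped as transcription factors, and 4 of these belong to the list of endoderm transcription factors. *Gata4* (chromosome 14, 63198922 to 63271692), a zinc finger factor of primitive endoderm and heart, measured 31.9, 31.7 and 33.9 CPM in the WT libraries, 20.7, 21.2 and 21.2 CPM in those of KO, and 2.196, 2.997 and 2.58 CPM under PA/PC. *Sox17* measured 10.7, 11.5 and 11.1 CPM in the WT libraries, 6.897, 6.603 and 5.08 CPM in those of KO, and 0.8999, 0.585 and 0.646 CPM under PA/PC. *Hnf4a*, a nuclear receptor of visceral endoderm and liver, measured 8.86, 7.58 and 8.91 CPM in the WT libraries, 10.4, 9.96 and 9.995 CPM in those of KO, and 0.756, 0.621 and 0.825 CPM under PA/PC. *Gata4* and *Sox17* stepped down from WT to KO and again to KO_PAPC, while *Hnf4a* was slightly higher in KO. Of *Sox17* exon bases 16.8% overlap another gene. The remaining endoderm factors at the floor were not uniform. *Sox7* (7.61-fold), *Gata6* (6.12-fold), *Foxa2* (5.60-fold), *Foxq1* (5.21-fold) and *Foxa1* (3.67-fold) were lower under PA/PC without reaching the limit, *Hhex* was 1.23-fold lower, and *Eomes* (29.1 CPM) and *Tcf7l2* (20.9 CPM) lay between their WT and KO means. Over the 12 at the floor the median ratio was 0.171, which includes the 4 members chosen on that ratio. *Jdp2*, *Tfec* and *Msc* completed this group of 7, at 15.7-fold, 8.05-fold and 22.4-fold.

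Beside the factors stood 10 genes of absorption, transport and channels. *Cubn* (chromosome 2, 13276338 to 13491813) encodes cubilin, with which visceral endoderm takes up proteins and vitamins by endocytosis, and had the highest WT mean count of all members. It measured 238, 240 and 237 CPM in the WT libraries, 97.1, 101 and 97.9 CPM in those of KO, and 8.603, 8.698 and 8.97 CPM under PA/PC. The groups did not overlap, and *Cubn* also kept the highest treated level of the members in CPM. *Aqp8*, a water channel, measured 33.1, 30.4 and 32.1 CPM in the WT libraries, 10.3, 10.7 and 11.8 CPM in those of KO, and 1.08, 0.767 and 1.36 CPM under PA/PC. *Slco2a1*, a prostaglandin transporter, measured 22.5, 23.98 and 23.8 CPM in the WT libraries, 15.1, 15.03 and 14.8 CPM in those of KO, and 0.828, 1.13 and 1.005 CPM under PA/PC. *Abcc2*, an export pump of liver and gut, was higher in KO and measured 5.64, 5.32 and 5.54 CPM in the WT libraries, 10.1, 11.4 and 10.8 CPM in those of KO, and 0.288, 0.402 and 0.251 CPM under PA/PC. The rest, *Gjb5* (a connexin), *Slc13a5* (citrate), *Slc52a3* (riboflavin), *Scn3b*, *Calhm5* and *Kcnc4*, were 8.08-fold to 12.5-fold lower. The list of 39 endoderm genes, mostly of endocytosis and secretion, had 24 at the floor, with a median ratio of 0.258 that includes the members chosen on it. Its members were *Cubn* and *Rhox5*, the homeobox factor already described, which the list held as a gene of endoderm and not for such a role. The list's summed level was 2443 to 2524 CPM in WT, 1703 to 1776 CPM in KO, and under PA/PC 1015 to 1061 CPM, and 1, 1 and 3 of the 39 were at 0 in all libraries of the group. Its part in the members' levels was not tested. Of 19 basement membrane genes at the floor 0 were members, with a median ratio of 0.591. Endoderm receptors and signalling genes also had 0 members among 17 at the floor. Their median ratio was 0.851, and their summed level was 1338 to 1365 CPM in WT, 924 to 935 CPM in KO, and higher under PA/PC at 1564 to 1586 CPM.

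The 11 genes of receptors, adhesion and surface were 8.76-fold to 23.1-fold lower. *Itgb3* (chromosome 11, 104608000 to 104670476), the integrin β3 subunit, measured 27.6, 26.9 and 28.1 CPM in the WT libraries, 69.1, 68.5 and 70.2 CPM in those of KO, and 0.972, 1.53 and 1.08 CPM under PA/PC. *Klb*, encoding β-Klotho, the co-receptor for endocrine fibroblast growth factors, measured 10.5, 11.1 and 11.9 CPM in the WT libraries, 4.796, 5.82 and 4.5998 CPM in those of KO, and 0.216, 0.512 and 0.431 CPM under PA/PC. *Cd80*, a costimulatory ligand, and *H2-Eb1*, a class II histocompatibility chain, were 14.1-fold and 12.7-fold lower. The 11 secreted proteins, proteases and matrix genes ranged from 8.14-fold to 17.2-fold. *Htra1*, a secreted serine protease, measured 39.7, 42.5 and 40.1 CPM in the WT libraries, 28.5, 27.8 and 29.99 CPM in those of KO, and 3.06, 2.96 and 3.09 CPM under PA/PC. *Mmrn2*, an extracellular matrix glycoprotein of vessels, measured 40.5, 40.6 and 39.9 CPM in the WT libraries, 61.5, 61.4 and 58.9 CPM in those of KO, and 2.74, 2.45 and 1.87 CPM under PA/PC. *Cemip*, which degrades hyaluronan, *Hpse*, which cleaves heparan sulfate, *Tmprss2*, *Ace* and *Fetub* were further members of this kind. The 9 endothelium and blood markers, a list without members, summed to 99.9 to 102 CPM in WT, 156 to 159 CPM in KO, and under PA/PC 28.8 to 31.6 CPM, with 2, 1 and 2 of them at 0 in a whole group, and their part was not tested. The 10 fibroblast markers summed to similar levels, 27.1 to 29.2 CPM in WT, 27.8 to 29.7 CPM in KO, and under PA/PC 23.9 to 26.5 CPM. The 8 trophoblast markers summed to 13.2 to 13.9 CPM in WT, 20.9 to 21.6 CPM in KO, and under PA/PC 8.21 to 9.65 CPM. The 16 neuroectoderm markers stood the other way, at 1009 to 1028 CPM in WT, 903 to 924 CPM in KO, and under PA/PC 1451 to 1498 CPM, with 13 of 16 higher and 1 lower than in KO by edgeR's quasi-likelihood test (adjusted p under 0.05). Of all genes tested in KO_PAPC versus KO, 39.6% were higher and 42.2% lower (31.0% higher when scaled by library totals). The part of these cell types in the members' levels was not tested.

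Among 5 enzymes, *Gpat3*, which begins glycerolipid synthesis by adding a fatty acid to glycerol 3-phosphate, measured 8.96, 10.3 and 7.86 CPM in the WT libraries, 13.3, 12.99 and 15.5 CPM in those of KO, and 0.5399, 0.402 and 0.395 CPM under PA/PC. It was 20.3-fold lower, but 37.4% of its exon bases overlap another gene, which unstranded counting cannot separate. The list of lipid transport, storage and oxidation genes did not hold *Gpat3*. None of its 38 genes at the floor was a member, and their median ratio was 0.916. The hexokinase *Hkdc1* and the sialyltransferase *St8sia6* were 8.60-fold and 10.4-fold lower. The last 15 members had mixed roles. *Cdkn2a*, whose transcripts encode 2 inhibitors of the cell cycle, measured 16.9, 19.7 and 17.5 CPM in the WT libraries, 32.03, 30.9 and 31.7 CPM in those of KO, and 1.62, 1.608 and 1.83 CPM under PA/PC. *Peg10* (chromosome 6, 4747306 to 4760517), an imprinted gene of retroviral origin that the placenta needs, measured 3.95, 4.35 and 4.06 CPM in the WT libraries, 4.901, 4.78 and 4.18 CPM in those of KO, and 0.07199, 0.1096 and 0.179 CPM under PA/PC. It was 34.2-fold lower on 10 counts and the only member among 16 imprinted genes at the floor. *Tmem92* (chromosome 11, 94777217 to 94782703) measured 3.95, 3.702 and 3.95 CPM in the WT libraries, 59.3, 62.7 and 57.5 CPM in those of KO, and 0.108, 0.219 and 0.0718 CPM under PA/PC. *Gm21761* measured 4.798, 3.95 and 3.95 CPM in the WT libraries, 60.6, 63.4 and 60.9 CPM in those of KO, and 0.216, 0.256 and 0.251 CPM under PA/PC. These last 2 were scarce in WT, abundant in KO and near 0 in every treated library. *Tmem92* is in the list of genes of the 2-cell-like state, a rare state of embryonic stem cells, of which 3 of 30 were at the floor. The list summed to 53.6 to 55.4 CPM in WT, 334 to 338 CPM in KO, and under PA/PC 16.01 to 18.0 CPM. By edgeR 27 of 27 genes tested were higher in KO than in WT (36.8% of all genes), and 27 of 27 were lower in KO_PAPC than in KO (42.2% of all genes). The latter include *Tmem92*, which was chosen as low under PA/PC. The part of this state in the members' levels was not tested. *Gm21761* shares 75.5% of its 51-base words with other genes, most often *Gm20767*, and must be taken as uncertain. *Ccdc152* was 48.7-fold lower on 6 counts, with 32.3% of its exon bases overlapping another gene.

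The rule treated WT and KO alike, so it did not use the direction of their difference. It was still not independent of KO versus WT, because both groups had to be at the floor and the lower of their means set the limit. Genes under the floor in either group were left out, whatever their difference between KO and WT. The calls below therefore describe genes already chosen on both means. By edgeR's quasi-likelihood test, fitted over 17355 genes with adjustment over all of them, 53 of the 88 members were higher in KO (60.2%), 25 were lower (28.4%) and 10 were not called. Of all genes tested 73.8% were called, and the background by direction was 36.8% higher and 37.1% lower among all genes tested, and 38.4% and 41.9% among the 11317 at the floor. Higher members were most frequent on the X chromosome and among the members with mixed roles. Of the 24 members on X, 19 were higher and 5 lower (79.2% and 20.8%), beside 58.4% and 16.9% of the 673 X-linked genes tested, so that the X chromosome as a whole leaned the same way. Off X, 34 were higher, 20 lower and 10 not called (53.1%, 31.2% and the rest).

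The strongest rises in KO were *Tmem92* (log2 fold change 3.95 ± 0.064), *Gm21761* (log2 fold change 3.86 ± 0.063), *AU015836* (log2 fold change 2.60 ± 0.038) and *Tuba3a* (log2 fold change 1.91 ± 0.035), all at edgeR adjusted p-values of at most 2.84e-31. Of the 21 members grouped as X-linked germ cell and placenta genes 16 rose, beside 58.4% of all X-linked genes tested. *Usp26* rose by 1.89 ± 0.066, *Pnma5* by 1.71 ± 0.036, *Rhox9* by 1.90 ± 0.073 and *Fmr1nb* by 1.18 ± 0.034 on the log2 scale. The 5 that fell were *Gm364*, *Gm15262*, *Nxf7*, *Rhox13* and *Rhox5*. The calls for *Rhox5* and *Scml2* were lost without KO replicate 3, that for *Dazl* without KO replicate 1 and that for *Tuba3b* without KO replicate 1 or 2 or WT replicate 3 and by DESeq2. Among the strongest falls were *Aqp8* (log2 fold change -1.54 ± 0.059), *Tfec* (log2 fold change -1.34 ± 0.10) and *Cubn* (log2 fold change -1.27 ± 0.027), at edgeR adjusted p-values of at most 1.73e-13. Of the 7 transcription factors outside the *Rhox* family 5 fell in KO, 1 rose (*Hnf4a*, 0.26 ± 0.078, edgeR adjusted p = 0.00331, not called by DESeq2) and *Msc* was not called, while of the 5 *Rhox* factors 3 rose and 2 fell. Absorption and transport genes split into 4 higher, 3 lower and 3 not called, receptors into 6, 3 and 2, secreted proteins into 5, 4 and 2, enzymes into 2, 2 and 1, and autosomal germ cell genes into 5, 3 and 0. Of the 15 members with mixed roles 14 rose and *Peg10* was not called. Among all genes at the floor 38.4% were higher and 41.9% lower, and the groups were made after the members had been seen. The members that shared a low level under PA/PC therefore took both directions in KO.

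**Figure D5:**
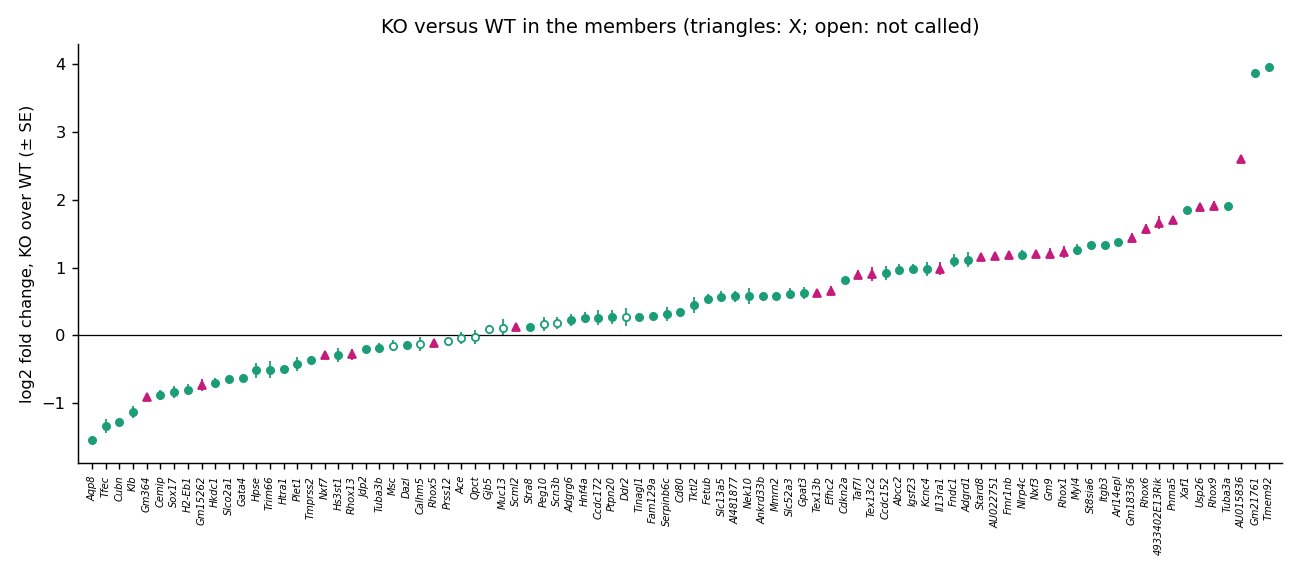
Log2 fold change of KO over WT for the members in order of size (1 is not drawn), with the standard error from edgeR, triangles for genes on the X chromosome and open symbols for the 10 genes that were not called. The values run from -1.54 (*Aqp8*) to 3.95 (*Tmem92*), with 19 of the 24 triangles called above 0.

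DNA methylation and germline gene repressors are known to act on several of the member families, and their genes were kept as separate lists, with 18 and 29 genes at the floor and 0 members. The writer *Dnmt3b* had means of 218 ± 3.29, 150 ± 1.38 and 619 ± 10.1 CPM (SD, n = 3 each) in WT, KO and KO_PAPC, and *Dnmt3a* at 334 ± 3.005, 209 ± 2.49 and 580 ± 5.44 CPM. Both therefore fell in KO (by 0.54 and 0.67 on the log2 scale) and rose in KO_PAPC over KO, by 2.21 ± 0.026 and 1.63 ± 0.025 (SE), with edgeR adjusted p-values of 2.11e-39 and 7.17e-36. *Uhrf1*, which brings the maintenance enzyme to new DNA, was higher by 1.003 ± 0.025, and *Dnmt1*, that enzyme, stood at 332, 387 and 344 CPM. Among the repressors, *Ehmt2*, a histone H3K9 methyltransferase, was higher in KO_PAPC than in KO by 1.04 ± 0.029 and *Tfdp1* by 0.90 ± 0.029. *Zfp42* and *Dppa2*, both pluripotency genes, were lower by 1.85 and 1.46. Part of this was a return toward WT. In KO versus WT *Ehmt2* was lower by 0.76, and *Zfp42* and *Dppa2* were higher by 1.01 and 1.26. In KO_PAPC versus WT *Uhrf1* was higher by 0.66 and *Tfdp1* by 0.50, and *Zfp42* was lower by 0.84. Against KO, 8 of 20 methylation genes were higher and 9 lower, and 17 of 29 repressors higher and 11 lower, next to 39.6% and 42.2% of all genes. DNA methylation was not measured in these libraries, and the part of these genes in the members' levels was not tested.

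The same limit of 1/8 was also applied with the type or the floor relaxed, which fixes the pattern of the genes it finds. With all gene types admitted, 9 noncoding genes joined, among them *Lncenc1*, a long noncoding RNA of naive embryonic stem cells, at 68.7, 199 and 7.65 CPM in WT, KO and KO_PAPC, the X-linked testis transcript *Tslrn1* (3.66, 7.12 and 0.0481 CPM) and the pseudogene *Gm11427*, which had 0 counts in the treated libraries after 6.62 and 4.01 CPM in WT and KO. With a floor of 1 CPM 61 protein-coding genes joined, 10 of them on X. These included *Asz1*, which protects the germ line from transposons, at 6.90, 2.51 and 0.0240 CPM, *Xlr3a* at 2.10, 4.52 and 0.0240 CPM and *Zscan4d*, a marker of the 2-cell-like state, at 2.11, 38.7 and 0.133 CPM. These examples were chosen after their values had been seen.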

How the data were processed

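The authors sequenced unstranded polyA libraries with 51-cycle single-end reads and deposited whole-number counts per Ensembl gene, without normalization. For KO and KO_PAPC, reads were mapped with STAR 2.7.2b to GRCm38 and counted with featureCounts 1.6.5, and reads with several places or several genes were left out. For WT the study describes an earlier pipeline, whereas the submitters' processing notes list the same tools for all libraries, so a pipeline difference between WT and the rest cannot be told apart from genotype.

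Gene types, symbols and positions came from GENCODE M21 by Ensembl ID (241 IDs without a match). The number of per-sample columns left unused was 0. CPM used library totals. Each contrast was fitted on its own 6 libraries in R 4.3.3 with edgeR 4.0.16, by its quasi-likelihood test (TMM, filterByExpr, Benjamini-Hochberg, adjusted p under 0.05), over all genes. DESeq2 1.42.0 was an alternative. On simulated data for KO versus WT, 98.5% of 200 changed genes among 55471 were recovered, with 9 false calls. The changed genes were drawn from well-counted genes only, and all genes shared 1 dispersion. In the data 73.8% of the genes tested were called, so these figures check the code and do not give error rates for these data. Intervals of folds are 95% and cover counting error only.

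The members, the 20 gene lists, the tests and the alternatives were chosen with earlier results of these data known, and the 8 role groups after the members had been seen. By rule, the text names the 12 members highest in WT, the 8 with the lowest ratio, up to 5 per list, up to 4 per family, the 5 nearest the limit on each side, the 4 largest rises and falls in KO, up to 4 regulators per list and contrast, and *Tnfaip2*. The values of 1 member are not reported here. Other genes named are examples chosen after their values had been seen. A share over 10% of 51-base transcript words or exon bases in common with another gene was taken as uncertain: 11 members had such words and 5 such exons.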

Additional observations from a re-analysis of the deposited data

How the results depend on the processing

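The number of members depended on the limits: 88 became 249 with a limit of 1/4, 25 with 1/16, 149 with a floor of 1 CPM and 35 with a floor of 10 CPM. It was 71 after TMM scaling, 64 when the highest treated library had to be at most 1/8 of the lowest untreated one, 97 with all gene types, and 82 to 93 when 1 library was left out. Members called higher in KO versus WT numbered 53 in edgeR, 48 in DESeq2, 51 without the count filter, and 49 to 52 without 1 library. Members called lower numbered 25, 23, 25, and 23 to 25. Over all genes, KO versus WT gave 12813 called genes (12382 to 12820 without 1 library), KO_PAPC versus KO 14047 (13785 to 14137) and KO_PAPC versus WT 11760 (11208 to 11654), all within 1.5 times of the main count under every alternative run. Scaling by library totals lowered the share of called genes that were higher from 48.4% to 38.0% for KO_PAPC versus KO and from 48.4% to 30.2% for KO_PAPC versus WT. Same-numbered replicates did not deviate together (correlations -0.042 to 0.062), so the numbers were not taken as pairs; a fit with the replicate number as a block called 12587, 13822 and 12223 genes in the 3 contrasts and the same 53 and 25 members. Of 1344 refits of single genes, 1312 kept direction and call, 27 lost the call, 2 gained it and 3 changed sign, all of genes that were not called: *Ace*, whose log2 fold change ran from -0.083 to 0.023 without 1 library (0.020 without KO replicate 3 and 0.023 without WT replicate 2), and *Qpct*, from -0.083 to 0.020 (0.020 without WT replicate 1). Members with few treated counts had wide fold intervals, which is what depth limits here.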
